A study of Mus musculus with 10 samples.

Results

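The genes described here serve the major histocompatibility complex (MHC) and the processing of antigens. They were found by symbol in the platform table: every feature with a single symbol that began with H2-, the prefix of mouse MHC genes, or that was 1 of 18 named genes of antigen presentation. This gave 21 of the 9596 features, each for a different gene, of which 7 had H2- symbols and 14 were named genes. They were 7 class II features (H2-Aa, H2-Eb1, H2-Ea, Cd74, H2-DMa, H2-DMb1 and H2-Ob), 7 features of the light chain and peptide loading of class I (B2m, Tap1, Tap2, Erap1, Calr, Canx and Pdia3), the lipid- and metabolite-presenting molecules Cd1d1 and Mr1, the costimulators Cd80 and Cd86, the regulators Ciita and Rfxank, and H2-Ke6. No feature of a classical class I heavy chain had a single symbol. The arrays were 2-colour cDNA arrays, so each value is a ratio between RNA of a pair of conditions and not a level.

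The RNA came from adherent cells of C57/6N black mice aged 8 weeks: peritoneal exudate cells, here PEC, or macrophages from a tumour, here TAM. They were kept in culture untreated or with 100 ng/mL lipopolysaccharide (LPS, a bacterial cell wall component that activates macrophages) for 4 hours. The TAM were taken 3 weeks after a tumour was implanted, and the labels name neither the tumour nor how many mice were pooled. The 10 arrays made 4 direct comparisons: PEC with LPS over untreated PEC (PEC1, PEC2), TAM with LPS over untreated TAM (TAM-trial, TAM-16), untreated TAM over untreated PEC (TAM-8, TAM-3, TAM-2R, TAM-b), and TAM with LPS over PEC with LPS (TAM1, TAM7). Nothing in the labels says that the arrays of a comparison came from separate animals or cultures, so p-values measure the spread between arrays, which may be technical.

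MHC class I molecules, a heavy chain with beta-2 microglobulin (B2m), show peptides of the cell's own proteins to CD8 T cells. Those peptides are cut by the proteasome, carried into the endoplasmic reticulum by the transporter of Tap1 and Tap2, trimmed by Erap1 and loaded with the help of the chaperones Calr, Canx and Pdia3. MHC class II molecules, alpha and beta chains that assemble on the invariant chain Cd74, show peptides of ingested material to CD4 T cells. H2-DMa and H2-DMb1 form the editor that loads class II, H2-Ob is a chain of the molecule that restrains it, and Ciita is the coactivator that, with the Rfxank-containing complex, switches class II genes on. In macrophages interferon-gamma is the classical inducer of both pathways. LPS acts partly through interferon made by the cells themselves, which is mainly of another type. C57BL/6 mice carry the H-2b haplotype, in which the H2-Ea gene yields no transcript, so the H2-Ea feature has no known target of its own in such mice.

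The labels do not name the dyes. Ratios were read as channel 2 over channel 1 because 36 features of LPS-induced genes, none of them a member, had medians of 1.98 on PEC1 and 2.46 on PEC2 in log2 units when read that way. All directions are therefore likely and not certain. TAM-2R and TAM1, labelled with their channels exchanged, were turned. Replicate arrays agreed poorly over all features: PEC1 and PEC2 correlated at r = 0.269, TAM1 and TAM7 at 0.293, TAM-trial and TAM-16 at 0.096, and the untreated TAM arrays at 0.036 to 0.329. The same LPS-induced genes had a median of 1.58 on TAM-16 but 0.26 on TAM-trial. Print and array cannot be told apart within the comparisons of 2 arrays, because PEC1 was of print v1p1, TAM-8, TAM7 and TAM-trial of v9p2, and all others of v3p6.

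Promoter sequences from RefSeq (GRCm38.p6) were at hand for 15 of the 21 members. The 5 shown are those of H2-Aa, H2-Eb1, Tap1 and B2m, which lay above 0 on both arrays of LPS in PEC and are described in most detail, and of H2-Ob, a class II gene that did not. Each run is the 250 bases before the annotated start, 5′ to 3′ on the gene's strand, and capitals mark matches to the motifs searched.
H2-Aa (chr17:34287824-34288073, minus strand): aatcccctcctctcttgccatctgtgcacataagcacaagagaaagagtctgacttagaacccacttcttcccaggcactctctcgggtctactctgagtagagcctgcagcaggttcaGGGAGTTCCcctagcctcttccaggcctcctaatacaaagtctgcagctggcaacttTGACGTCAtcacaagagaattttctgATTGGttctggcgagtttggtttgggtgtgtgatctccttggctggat
H2-Eb1 (chr17:34305617-34305866, plus strand): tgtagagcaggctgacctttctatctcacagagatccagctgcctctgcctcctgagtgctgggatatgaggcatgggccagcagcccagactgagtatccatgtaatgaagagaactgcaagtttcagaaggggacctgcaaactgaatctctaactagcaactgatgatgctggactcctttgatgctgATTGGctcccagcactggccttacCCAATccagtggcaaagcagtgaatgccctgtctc
H2-Ob (chr17:34238655-34238904, plus strand): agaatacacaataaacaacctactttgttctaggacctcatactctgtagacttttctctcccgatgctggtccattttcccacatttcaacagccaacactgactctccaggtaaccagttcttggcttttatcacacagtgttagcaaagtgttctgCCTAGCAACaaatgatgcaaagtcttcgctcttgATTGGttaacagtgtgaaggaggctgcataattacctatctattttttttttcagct
B2m (chr2:122147437-122147686, plus strand): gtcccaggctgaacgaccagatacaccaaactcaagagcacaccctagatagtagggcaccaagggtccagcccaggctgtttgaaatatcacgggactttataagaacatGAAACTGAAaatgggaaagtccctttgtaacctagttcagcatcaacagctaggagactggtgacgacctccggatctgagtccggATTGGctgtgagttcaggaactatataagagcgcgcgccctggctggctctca
Tap1 (chr17:34187306-34187555, plus strand): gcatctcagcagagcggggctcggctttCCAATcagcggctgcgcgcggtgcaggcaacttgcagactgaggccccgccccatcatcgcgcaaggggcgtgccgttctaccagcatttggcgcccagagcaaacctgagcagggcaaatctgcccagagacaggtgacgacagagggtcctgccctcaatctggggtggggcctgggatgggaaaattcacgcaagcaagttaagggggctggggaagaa
The motifs were sought on both strands of windows reaching 50 bases past the start, 300 bases in all. CCAAT, the core of the Y box of class II promoters, was in 37.4% of all 32851 windows, and its reverse ATTGG began at -48 in H2-Aa, -59 in H2-Eb1, -57 in H2-Ob and -53 in B2m, counted from the start of the gene. H2-Eb1 held a further match at -35, and the match of Tap1 lay at -222. The X box letters CCTNGCAAC (1.74% of windows) matched in H2-Ob at -91. Only exact matches were marked, so the other promoters shown may hold X boxes that differ in some letters. The NF-kB letters GGGNNTTCC (5.82%) and the CRE letters TGACGTCA (1.79%) matched in H2-Aa at -131 and -74, and the IRF letters GAAANNGAA (8.56%) matched in B2m at -139. These matches describe letters and show no binding.

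None of the 21 members passed the test over all 9596 features (limma, adjusted p under 0.05) in any comparison, and few features did. The share of all features called was 0.0104% for LPS in PEC, 0% for LPS in TAM, 0.406% for untreated TAM over PEC, 0.0625% for TAM over PEC with LPS, and 0% for the difference between the LPS responses. At an unadjusted p under 0.05, 6 of 21 members were counted for LPS in PEC, all higher, beside 7.76% of all features in either direction and 5.36% counted as higher. The 6 were H2-Aa, H2-Eb1, H2-DMa, B2m, Tap1 and Calr, and the count was 2 without PEC1, 2 without PEC2, 2 with PEC2 alone among arrays of print v3p6 and 2 in a joint fit with a dye term. For the difference between the responses 7 of 21 were counted (H2-Aa, H2-Eb1, H2-Ea, Cd74, H2-DMa, B2m and Calr), all lower in TAM, beside 6.58% of all features and 5.70% counted as lower. That count was 1 without TAM-trial, 2 without PEC1, 2 without PEC2 and 2 within print v3p6. In the other comparisons 2 members were counted for LPS in TAM (Pdia3 and H2-Ea, both lower; 5.64% of all features), 3 for untreated TAM over PEC (H2-Eb1 and H2-Aa higher, H2-Ob lower; 14.0%) and 2 for TAM over PEC with LPS (B2m and Tap1, both lower; 8.53%). The count for LPS in TAM was 0 without TAM-trial and 5 without TAM-16, that for untreated TAM was 1 within print v3p6, and that for TAM with LPS was 1 without TAM1, 1 without TAM7, 1 with TAM1 not turned and 4 in the joint fit.

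The members' median mean log2 ratio was 0.60 for LPS in PEC, against -0.05 over all features, and 13 of 21 lay above 0 on both arrays, as 30.9% of all features did. For LPS in TAM the median was -0.27 (-0.11 without TAM-trial) against -0.13, with 8 of 21 below 0 on both arrays, as were 33.8% of all features. Both patterns together, above 0 on both PEC arrays and below 0 on both TAM arrays, held for 3 of 21 members (H2-Aa, Cd74 and H2-DMa) and for 8.74% of all features. For untreated TAM over PEC it was 0.26 against -0.03, with 4 of 21 above 0 on all 4 arrays, as were 8.53% of all features. For TAM over PEC with LPS it was -0.14 against 0.08, with 8 of 21 below 0 on both arrays, as were 27.9% of all features. The difference between the LPS responses had a median of -0.97, against -0.11 over all features. It was below 0 for 17 of 21 members and for 5285 of all 9596 features.

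**Figure D1:**
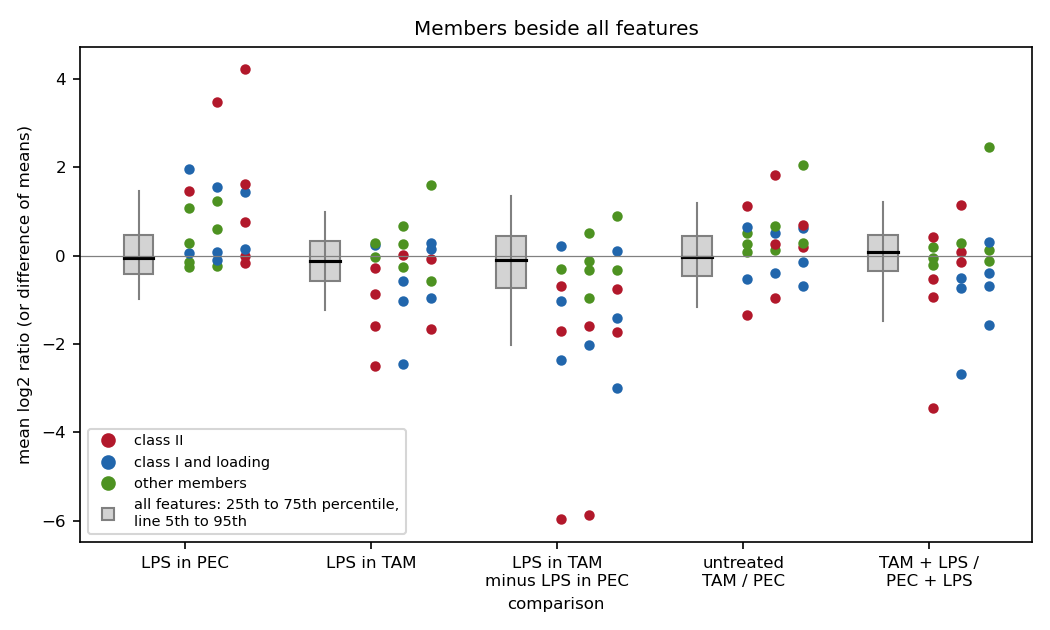
Mean log2 ratios of the 21 members (points, coloured by role) beside all 9596 features (box from the 25th to the 75th percentile, line from the 5th to the 95th) for the 4 comparisons and the difference between the LPS responses. For LPS in PEC, H2-DMa and Cd74 stand highest (4.21 and 3.46), and for the difference the same genes stand lowest (-5.86 and -5.96).

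Of the class II chains, H2-Aa and H2-Eb1 had ratios above 1 log2 unit in PEC after LPS and near 0 in TAM after LPS, and neither passed the test. H2-Eb1, the beta chain of I-E, had log2 ratios of 1.61 on PEC1 and 1.63 on PEC2 (mean 1.62 ± 0.01, SD, n = 2, 3.07-fold, adjusted p = 0.442). H2-Aa, the alpha chain of I-A, had 1.72 on PEC1 and 1.18 on PEC2 (1.45 ± 0.38, SD, n = 2, 2.73-fold, adjusted p = 0.442). For both genes the arrays lay close together and above 1 log2 unit. In TAM, H2-Eb1 had -0.35 on TAM-trial and 0.18 on TAM-16 (mean -0.09, 95% interval -1.08 to 0.91). H2-Aa had -0.42 on TAM-trial and -0.12 on TAM-16 (mean -0.27, interval -1.20 to 0.66). For the difference between the responses in TAM and PEC, 7.2% of all features lay lower than H2-Aa and 7.4% lower than H2-Eb1. The difference between the responses was -1.72 for H2-Aa (interval -3.03 to -0.41) and -1.71 for H2-Eb1 (interval -3.12 to -0.29), with an adjusted p of 0.754 for each.

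Among the proteins that assemble and load class II, Cd74 and H2-DMa lay far from 0 on some arrays and differed widely between others. H2-DMa, a chain of the peptide editor, had the highest mean of the members for LPS in PEC, with 3.76 on PEC1 and 4.66 on PEC2 (4.21 ± 0.63, SD, n = 2, 18.5-fold, adjusted p = 0.487). In TAM it had -0.14 on TAM-trial and -3.16 on TAM-16. In a joint fit of all 4 comparisons with a dye term, the mean for LPS in PEC was 1.13 for H2-DMa, 0.87 for H2-Eb1 and 0.82 for H2-Aa, and the difference of H2-DMa between the responses was -1.56 in place of -5.86. The partner chain H2-DMb1 lay nearer to 0, at 1.16 on PEC1 and 0.38 on PEC2, and at -0.03 and 0.05 on the TAM arrays. The chains of 1 heterodimer thus had different ratios on the same arrays. Cd74, the invariant chain, had 0.95 on PEC1 and 5.98 on PEC2, and in TAM -1.37 on TAM-trial and -3.63 on TAM-16. Its PEC arrays were both above 0 and its TAM arrays both below, and the PEC arrays lay far apart.

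Other class II features did not share this pattern. H2-Ob, a chain of the molecule that restrains the editor, had 0.10 on PEC1 and -0.45 on PEC2, and -1.38 and -0.34 in TAM. H2-Ea, which has no known transcript in H-2b mice, had 0.08 on PEC1 and -0.10 on PEC2. On the arrays with LPS-treated TAM it was below 0 throughout: -2.29 on TAM-trial, -0.91 on TAM-16, -1.25 on TAM1 and -0.62 on TAM7. A feature with no known transcript of its own thus stood at -2.29 on 1 array. What RNA bound there was not tested.

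**Figure D2:**
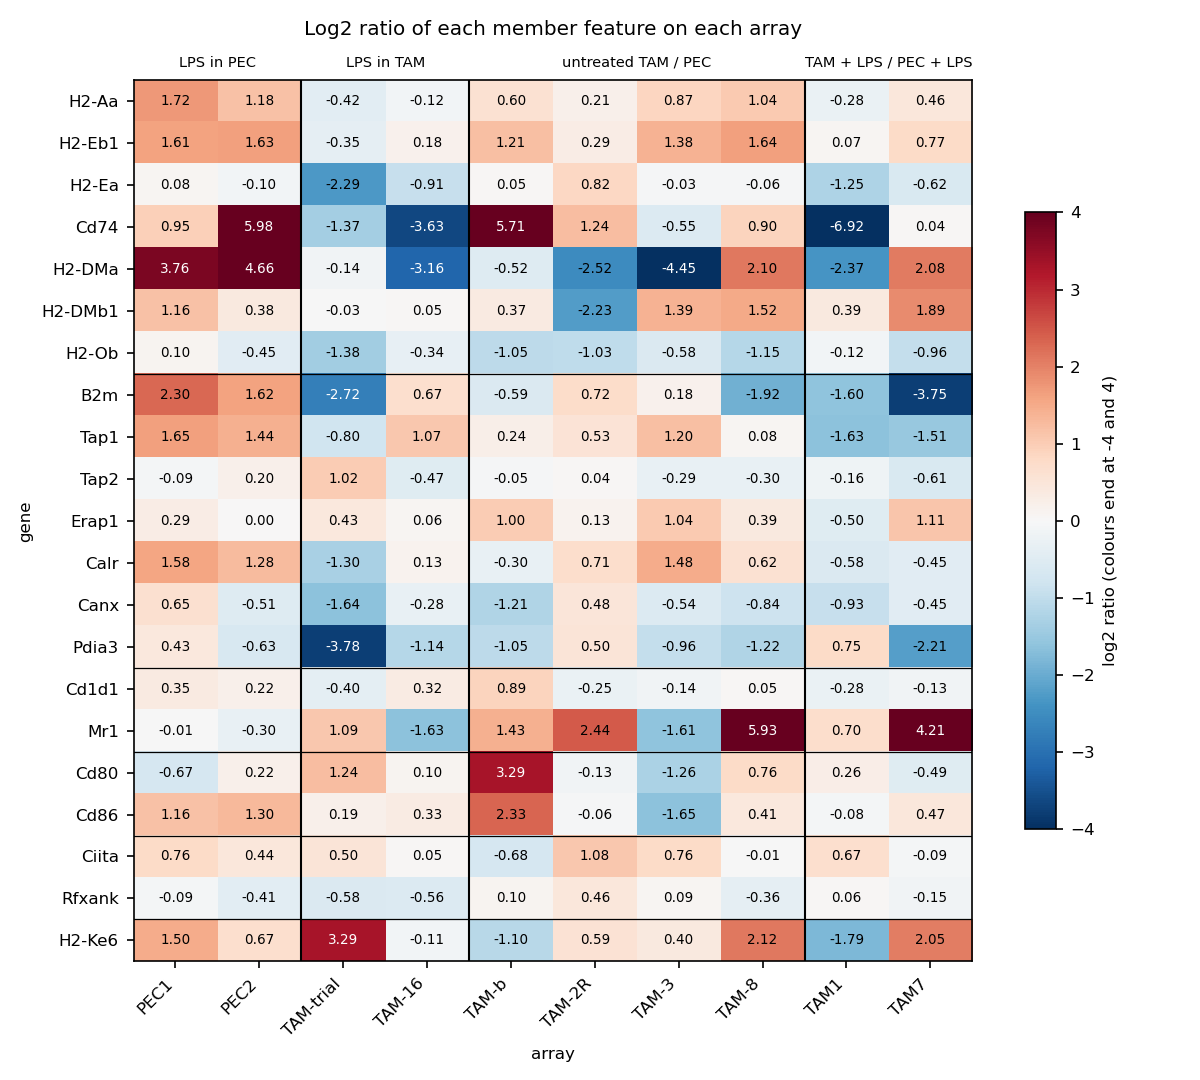
Log2 ratios of the 21 members (rows, grouped by role) on the 10 arrays (columns, grouped by comparison), with the value in each cell. H2-Aa and H2-Eb1 are between 1.18 and 1.72 on PEC1 and PEC2, whereas Cd74 runs from -6.92 on TAM1 to 5.98 on PEC2.

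Before any stimulus, H2-Eb1 and H2-Aa lay above 0 and H2-Ob below 0 on all 4 arrays of TAM over PEC, and none of the 3 passed the test. H2-Eb1 had 1.21 on TAM-b, 0.29 on TAM-2R, 1.38 on TAM-3 and 1.64 on TAM-8 (1.13 ± 0.59, SD, n = 4, 2.19-fold, adjusted p = 0.193). H2-Aa had 0.60, 0.21, 0.87 and 1.04 on the same arrays (0.68 ± 0.36, SD, n = 4, 1.60-fold, adjusted p = 0.345). Both were above 0 on 4 of 4 arrays and lowest on the turned TAM-2R, without turning which the means were 0.98 for H2-Eb1 and 0.58 for H2-Aa. The mean of H2-Aa was -0.018 once the median at each place within groups of 96 consecutive features was subtracted, and that of H2-Eb1 was 0.60. H2-Ob had -1.05, -1.03, -0.58 and -1.15 (-0.95 ± 0.25, SD, n = 4, 1.94-fold lower, adjusted p = 0.245). Its arrays lay close together and none was above 0 with TAM-2R turned. Without that turning the mean of H2-Ob was -0.44.

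The rest of the class II group disagreed between arrays of untreated TAM. Cd74 had 5.71 on TAM-b but 1.24 on TAM-2R, -0.55 on TAM-3 and 0.90 on TAM-8 (mean 1.83, and 0.53 without TAM-b). H2-DMa had -0.52, -2.52, -4.45 and 2.10, and H2-DMb1 had 0.37, -2.23, 1.39 and 1.52 on the arrays in that order. With LPS in both cell types, H2-Eb1 (0.07 on TAM1, 0.77 on TAM7) and H2-Aa (-0.28 and 0.46) lay near 0, with intervals of -0.58 to 1.42 and -0.84 to 1.02 for the means. Cd74 had -6.92 on TAM1 and 0.04 on TAM7, and H2-DMa had -2.37 and 2.08, so neither had a direction shared by the arrays. H2-DMb1 had 0.39 and 1.89.

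Genes of B cells, which also carry class II, were followed on the same arrays. Cd79a, a chain of the B cell receptor complex, had 2.29 on PEC1, 5.37 on PEC2, 5.98 on TAM-b, -1.12 on TAM-2R, 4.72 on TAM-3, -2.71 on TAM-8, -4.11 on TAM1, -1.78 on TAM7, -0.17 on TAM-trial and 0.01 on TAM-16. Like Cd74 it was far above 0 on PEC2 and TAM-b and far below 0 on TAM1, whereas its partner Cd79b had -0.11, -0.87 and 0.45 on those arrays. The 10 features of the B cell list had medians between -1.16 and 0.32 over the arrays, and none of them passed the test in any comparison (lowest adjusted p = 0.331). The part of other cells in the class II ratios was not tested. Fewer cells of a type and less RNA per cell cannot be told apart in these samples.

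**Figure D3:**
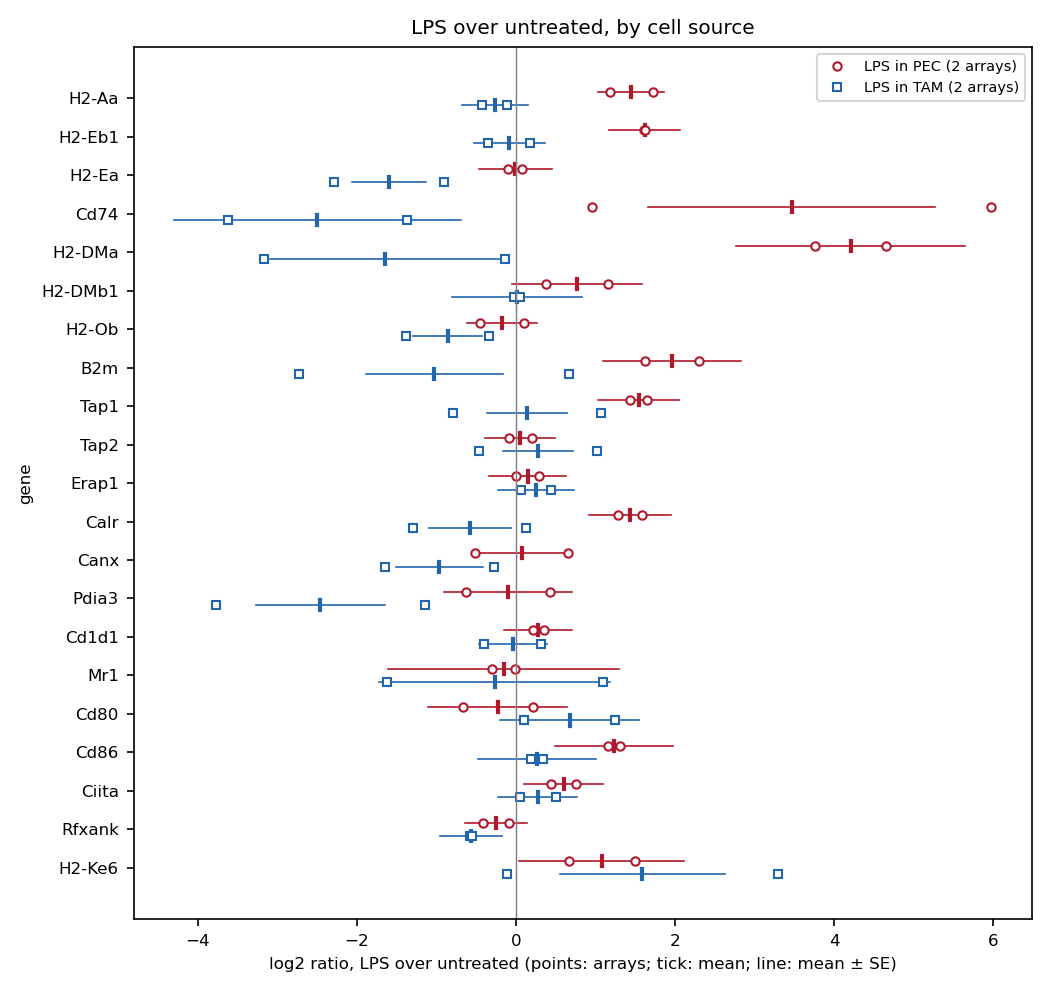
Log2 ratio of LPS over untreated for the 21 members in PEC (red circles) and TAM (blue squares), with points for arrays, a tick for the mean and a line for the mean ± SE of the fit. The mean in PEC lies right of that in TAM for 17 of the 21 members, as it does for 5285 of all 9596 features. The other members are Tap2, Erap1, Cd80 and H2-Ke6.

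The class I light chain and the peptide transporter subunit Tap1 lay higher in PEC after LPS, and lower in LPS-treated TAM than in LPS-treated PEC. B2m had 2.30 on PEC1 and 1.62 on PEC2 (1.96 ± 0.48, SD, n = 2, 3.89-fold, adjusted p = 0.631). Tap1 had 1.65 on PEC1 and 1.44 on PEC2 (1.54 ± 0.15, SD, n = 2, 2.91-fold, adjusted p = 0.479). In the direct comparison with LPS, B2m had -1.60 on TAM1 and -3.75 on TAM7 (-2.68 ± 1.52, SD, n = 2, 6.39-fold lower, adjusted p = 0.39). Tap1 had -1.63 on TAM1 and -1.51 on TAM7 (-1.57 ± 0.08, SD, n = 2, 2.97-fold lower, adjusted p = 0.389). All 4 of these ratios lay below -1.5, but those on TAM1 rest on the turning of that array. Without it the mean of Tap1 was 0.056 and that of B2m -1.08.

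Within TAM the arrays of LPS disagreed. B2m had -2.72 on TAM-trial and 0.67 on TAM-16, and Tap1 had -0.80 and 1.07 on the same arrays. The array on which both were above 0, TAM-16, was also the one with the higher ratios of LPS-induced genes. The difference between the responses in TAM and PEC was -2.99 for B2m (interval -5.72 to -0.25, adjusted p = 0.754) and -1.40 for Tap1 (interval -3.00 to 0.20, adjusted p = 0.791). Within print v3p6, where PEC2 and TAM-16 alone give it, the difference was -0.95 for B2m and -0.36 for Tap1. The arrays of untreated TAM over PEC differed in sign for B2m, at -0.59 on TAM-b, 0.72 on TAM-2R, 0.18 on TAM-3 and -1.92 on TAM-8. Tap1 had 0.24, 0.53, 1.20 and 0.08 on them in the same order (mean 0.51, adjusted p = 0.517).

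The second transporter subunit and the trimming enzyme were close to 0 in PEC after LPS and farther from 0 on some of the other arrays. Tap2 had -0.09 on PEC1 and 0.20 on PEC2, against 1.65 and 1.44 for Tap1, and lay between -0.30 and 0.04 on the arrays of untreated TAM. With LPS it had 1.02 on TAM-trial and -0.47 on TAM-16 within TAM, and -0.16 on TAM1 and -0.61 on TAM7 over PEC. Its 95% interval for LPS in PEC was -0.94 to 1.04. Erap1, the aminopeptidase that trims peptides, had 0.29 and 0.00 in PEC, 0.43 and 0.06 in TAM, and ran from 0.13 on TAM-2R to 1.04 on TAM-3 over the 4 arrays of untreated TAM (0.64 ± 0.45, SD, n = 4, adjusted p = 0.41). It had -0.50 on TAM1 and 1.11 on TAM7.

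Of the chaperones of peptide loading, calreticulin alone lay above 0 on both PEC arrays, and calnexin and the oxidoreductase Pdia3 had 1 array on either side of 0. Calr had 1.58 on PEC1 and 1.28 on PEC2 (1.43 ± 0.22, SD, n = 2, 2.69-fold, adjusted p = 0.502), and -1.30 and 0.13 in TAM on TAM-trial and TAM-16. Canx had 0.65 and -0.51 in PEC, and -1.64 and -0.28 in TAM. Pdia3 had 0.43 and -0.63 in PEC, and -3.78 and -1.14 in TAM (mean in TAM -2.46 ± 1.86, SD, n = 2, 5.51-fold lower, adjusted p = 0.832). For LPS in TAM, TAM-trial thus lay below TAM-16 for each of B2m, Tap1, Calr, Canx and Pdia3, and above it for Tap2 and Erap1. In untreated TAM over PEC, Pdia3 was at -1.05, -0.96 and -1.22 on TAM-b, TAM-3 and TAM-8 but 0.50 on the turned TAM-2R, and Canx was at -1.21, -0.54 and -0.84 but 0.48.

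**Figure D4:**
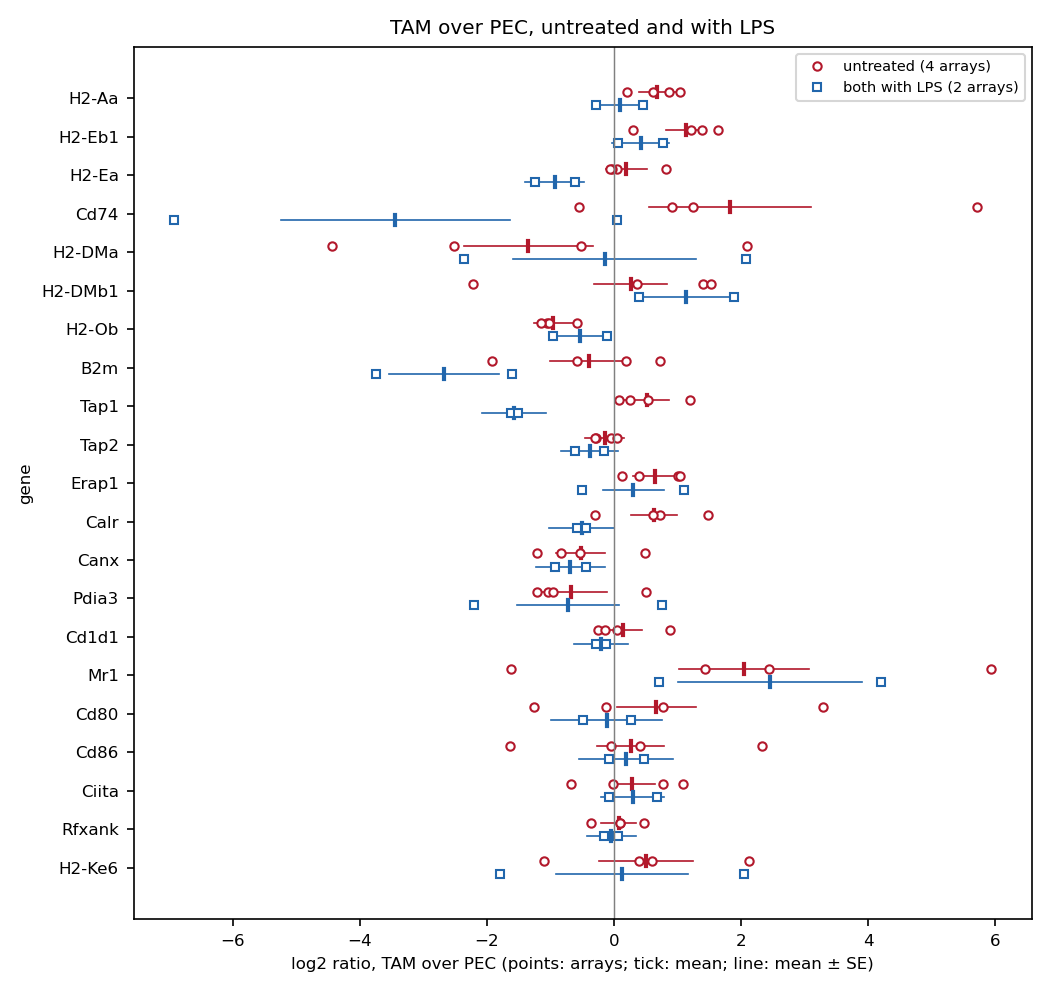
Log2 ratio of TAM over PEC for the 21 members, untreated (red circles, 4 arrays) and with LPS in both (blue squares, 2 arrays), with points for arrays, a tick for the mean and a line for the mean ± SE of the fit. Both LPS arrays of B2m and Tap1 lie below -1.5, whereas their untreated arrays lie on both sides of 0 for B2m and between 0.08 and 1.20 for Tap1.

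The remaining members lay near 0 or differed between arrays of 1 comparison. Cd1d1, which presents lipids to NKT cells, stayed between -0.40 and 0.89 on all 10 arrays. Mr1, which presents vitamin metabolites to MAIT cells, had 5.93 on TAM-8 and 4.21 on TAM7, the pair of TAM over PEC arrays of print v9p2. On the other arrays of TAM over PEC it had 1.43 on TAM-b, 2.44 on TAM-2R, -1.61 on TAM-3 and 0.70 on TAM1. H2-Ke6, a hydroxysteroid dehydrogenase gene that lies within the MHC and presents no antigen, was likewise high on every v9p2 array, at 2.12 on TAM-8, 2.05 on TAM7 and 3.29 on TAM-trial. On the v3p6 arrays it ran from -1.79 to 0.67, and it was 1.50 on PEC1. For both genes the part of the print in these values was not tested.

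The costimulators give T cells their second signal. Cd86 had 1.16 on PEC1 and 1.30 on PEC2 (1.23 ± 0.10, SD, n = 2, 2.35-fold, adjusted p = 0.826), and 0.19 and 0.33 in TAM. Cd80 had -0.67 and 0.22 in PEC, and 1.24 and 0.10 in TAM. In untreated TAM over PEC both were highest on TAM-b (3.29 for Cd80, 2.33 for Cd86) and lowest on TAM-3 (-1.26 and -1.65), so the arrays of 1 comparison disagreed in sign. The class II coactivator Ciita had 0.76 on PEC1 and 0.44 on PEC2 (0.60 ± 0.23, SD, n = 2, adjusted p = 0.943), and 0.50 and 0.05 in TAM. Rfxank, a subunit of the complex that Ciita binds, stayed between -0.58 and 0.46 on every array.

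A list of 45 further genes of antigen processing, costimulation and interferon signalling had 48 features on the arrays. For LPS in PEC none passed the test and 41 of 48 lay above 0 (median 1.10), 34 of them on both arrays. Of all 9596 features 4521 lay above 0 (median -0.05), 2964 features on both arrays. Those highest with 1 sign on both arrays were the costimulatory receptor Cd40 (2.78), the CCAAT-binding subunit Nfya (2.69) and the adhesion molecule Icam1 (2.05). The lowest were 1 of the 2 features of the CRE-binding factor Creb1 (-0.85, with the other at 0.94), the translocon subunit Sec61a1 (-0.61) and the TGF-beta receptor Tgfbr2 (-0.48). For LPS in TAM none passed and 18 of 48 lay above 0 (median -0.23), beside 4160 of all 9596 features (median -0.13). Cd40 (1.89), Icam1 (1.46) and the feedback inhibitor Socs1 (1.36) were the highest there. Sec61a1 (-2.86), the class II ubiquitin ligase Marchf1 (-2.14) and the protease Ctsl (-1.78) were the lowest. Cd40, Icam1 and Socs1 were above 0 on both arrays in both cell types, as were further features of the list. For LPS in TAM 16 of the 48 were above 0 on both arrays, beside 2160 of all 9596 features. The share of all features above 0 on both arrays in both cell types was not counted.

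In untreated TAM over PEC, 3 of the 48 features of the list passed the test in limma, beside 39 of all 9596 features (0.406%). The list was chosen with earlier results of these data known, and its share was not tested. Of the 3, 1 rose (the tetraspanin Cd81, 3.39, adjusted p = 0.00165) and 2 fell, the cathepsins Ctsb (-2.06, adjusted p = 0.0409) and Ctsd (-2.12, adjusted p = 0.0409). Without turning TAM-2R none of the 3 passed (Cd81 1.65, Ctsb -1.01, Ctsd -1.28), nor without turning TAM1, nor within print v3p6. Of 22 alternatives, Cd81 passed in 17, Ctsb in 5 and Ctsd in 3. With each array left out in turn, Cd81 passed in all 10 fits. Ctsb passed without TAM-3, TAM-trial or TAM-16 and was lost without any other array (adjusted p from 0.0776 to 0.153), and Ctsd was lost in all 10 (0.0618 to 0.153). Other lysosomal proteases of the list lay on either side of 0, with Ctsh at 0.34, Lgmn at 0.42, Ctsz at -0.11 and Ctss at -0.86. The macrophage markers Cd68 (-1.74) and Lyz2 (-1.55) were below 0 on all 4 of these arrays too, Marco (-1.25) and Adgre1 (-0.93) on 3 of 4, and Fcgr1 (1.10) was above 0 on all 4; their part in the cathepsin ratios was not tested. Of the pathway features that did not pass but had 1 sign on all 4 arrays, Ctsl (-2.26), Sec61a1 (-1.31) and the peptidase Tpp2 (-0.97) were the lowest and the proteasome regulator Psme3 (1.75), and the immunoproteasome subunits Psmb10 (1.39) and Psmb8 (1.12), were the highest. With LPS in both cell types none passed, and 35 of 48 lay below 0 (median -0.63), beside 4236 of all 9596 features (median 0.08). Ctsl (-4.17), Ctsd (-3.29, adjusted p = 0.0591) and Ctsb (-2.97, adjusted p = 0.062) were the lowest, and the other Creb1 feature (2.84, with the first at 0.78), Cd81 (1.60) and Cd48 (0.87) the highest.

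Psmb8 lies beside Tap1 in the MHC and cuts peptides for class I. It had 2.10 on PEC1 and 1.42 on PEC2, and -2.06 on TAM1 and -1.16 on TAM7, the signs that B2m and Tap1 had there. The 7 features of the macrophage marker list were all below 0 on both TAM1 and TAM7 (median -1.76), as were 27.9% of all features. Cd68 had -3.68 and -3.33 there (adjusted p = 0.215 in limma). For LPS in PEC 6 of the 7 had means above 0 (median 0.77), as had 4521 of all 9596 features. For LPS in TAM 6 of the 7 had means below 0 (median -0.88), as had 5431 of all features. Means for LPS in TAM were -1.03 for B2m, 0.14 for Tap1 and -0.19 for Psmb8. In untreated TAM over PEC 6 of the 7 had means below 0 (median -0.93), as had 4950 of all features. Psmb8 (1.12) and Tap1 (0.51) were above 0 on all 4 arrays there, and the mean of B2m was -0.40. The list of LPS-induced genes had medians of -1.81 on TAM1 and -1.76 on TAM7. The part of either list in the ratios of B2m and Tap1 was not tested. None of the features of the dendritic cell, T and NK cell, neutrophil, or tumour and stroma lists passed the test in any comparison (lowest adjusted p = 0.128). Single markers nonetheless lay far from 0. In untreated TAM over PEC the stromal Sparc (4.23), the epithelial Krt8 (1.94) and the neutrophil genes Ngp (2.50), S100a9 (1.92) and Camp (1.01) were above 0 on all 4 arrays, and Ccr7 (-1.74) was below 0 on all 4. Means there were above 0 for 8 of 11 tumour and stroma features, 6 of 7 neutrophil features and 4 of 8 dendritic cell features. The epithelial Cdh1 (-0.95) and the neutrophil Mpo (-0.24) had means below 0, and the dendritic cell marker Itgae (1.14) had 1 above 0. The T cell receptor subunit Cd3d had 5.12 on PEC1 and 5.31 on PEC2. For LPS in PEC, however, 8 of the 10 features of the T and NK cell list had means below 0 (median -0.21). The part of such cells in the members' ratios was not tested.

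The ratio of TAM to PEC with LPS can also be had through the other comparisons, as untreated TAM over PEC plus LPS in TAM minus LPS in PEC. For Tap1 this sum was -0.89, against -1.57 measured directly, and for B2m it was -3.39, against -2.68. For H2-Eb1 it was -0.57, against 0.42, and for H2-Aa it was -1.04, against 0.09. For H2-DMa it was -7.21, against -0.14. The routes differed in sign for both class II chains, and the gap was not tested.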

How the data were processed

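The deposited values are the authors' log ratios, 1 for each array and spot, taken here to be log2. How they corrected background, filtered spots and normalized, and which dyes and log base they used, is not given in the sources used here. The folds rest on base 2, which was assumed. Array medians as deposited lay between -0.199 and 0.022. No channel intensities were used, so dim spots could not be set aside, which can make ratios extreme. Features were named by the platform table supplied with the values (7486 with 1 symbol, 483 with several, 1627 with none), and 20 of the 21 members had their symbol in the reference table. cDNA spots can also bind RNA of related H2 genes.

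The turned log2 ratios of all 10 arrays were fitted with limma 3.58.1 (lmFit, eBayes) in R 4.3.3, with 1 mean per comparison (6 residual and 3.84 prior degrees of freedom), and p-values were adjusted (Benjamini-Hochberg) over 9596 features. Features were kept singly, since members were found by feature. SDs are over arrays, SEs and 95% intervals from the fit. The script was tested on simulated data. The members, gene lists and tests were chosen with earlier results of these data known. Further pathway genes were named where they passed, or were among the 3 highest or lowest of 1 sign on every array. Alternatives covered channel coding, averaging, scaling, centring, dye, print, position, joint fits and leaving out arrays.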

Additional observations from a re-analysis of the deposited data

Results flagged for a closer look

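Dixon's criterion for a sample apart from the rest, which chance meets in about 1 of 20 groups, was met by 2 members in untreated TAM over PEC, both on the turned array TAM-2R: H2-Ea (0.82, against -0.06 to 0.05 on the others) and Pdia3 (0.50, against -1.22 to -0.96). Without turning TAM-2R the mean of Pdia3 was -0.93 in place of -0.68.

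The LPS arrays of PEC lay above 0 and those of TAM below 0 for 3 of 21 members, as for 8.74% of all features. The difference of the means was -1.72 for H2-Aa, -5.96 for Cd74 and -5.86 for H2-DMa, with an adjusted p of 0.754 for each in limma. The interval was -11.64 to -0.28 for Cd74 and -10.41 to -1.31 for H2-DMa.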

How the results depend on the processing

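In each of 22 alternatives, 0 of 21 members passed the test in every comparison, as in the fit reported. The median over the members for TAM over PEC with LPS turned from -0.14 to 0.24 when TAM1 was not turned, alone or with TAM-2R, and was -0.28 within print v3p6. Its range was -0.28 to -0.13 with 1 array left out in turn. For LPS in TAM it was -0.56 with a dye term, -0.11 without TAM-trial (also within print v3p6) and -0.40 without TAM-16, and the medians for LPS in PEC (0.38 to 0.76) and untreated TAM (0.17 to 0.36) moved by less than the SD of the arrays' own medians. For untreated TAM over PEC, 39 of all features passed as reported, 0 when TAM-2R or TAM1 was not turned or within print v3p6, 1 in a fit of its own arrays alone, and 6 to 44 in the other alternatives. Of the members counted at an unadjusted p under 0.05, 2 changed sign: Tap1 in TAM over PEC with LPS (0.056 with TAM1 not turned, alone or with TAM-2R) and H2-Aa in untreated TAM (-0.018 after position medians were subtracted); the cause was not tested. Over all alternatives the sign was kept by 11 of 21 members for LPS in PEC, 9 for LPS in TAM, 10 for untreated TAM, 6 for TAM over PEC with LPS and 12 for the difference. No paired analysis was possible because the comparisons share fewer than 2 replicate numbers. The number of arrays, 2 in 3 of the comparisons, limits every value. With print as a random block the estimated correlation was -0.029.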

Other observations

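Of the features that were not members, 5 carry several symbols with at least 1 that starts with H2-, and are left unnamed. On PEC1 and PEC2, 3 of the 5 lay above 1 on both arrays, at 1.94 and 1.76, 1.49 and 1.16, and 1.38 and 1.16. All 5 lay below 0 on both TAM1 and TAM7, as did 27.9% of all features, with means between -1.64 and -0.72 (adjusted p from 0.281 to 0.833). Their signs on TAM1 rest on the turning of that array. For LPS in TAM, all 5 were above 0 on TAM-16 (0.42 to 0.77), and 3 of the 5 were above 0 on TAM-trial (-2.28 to 0.73 over the 5). None passed the test in limma for LPS in PEC (adjusted p from 0.289 to 0.985). At an unadjusted p under 0.05 the count was 2 for LPS in PEC (7.76% of all features) and 4 for TAM over PEC with LPS (8.53%).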
